A study of Schizosaccharomyces pombe with 4 samples.

Results

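The genes of the mitochondrial genome other than tRNA were followed in the fission yeast Schizosaccharomyces pombe. They were taken as the genes whose identifier begins with SPMIT but not with SPMITTRNA, which gave 11 of the 7049 genes in the count table. Their RNA was sequenced after depletion of ribosomal RNA in 2 delta4dus and 2 wild-type libraries. The delta4dus strain is labelled as deleted for all 4 dus genes, whose products, the dihydrouridine synthases, turn uridine into dihydrouridine, above all in tRNA. The other strain is labelled wild-type, and the labels name no other allele or agent. Both strains were grown at 32 °C in YES, a rich medium, until the optical density at 595 nm was near 0.5. The labels do not say whether the libraries of a strain came from separate cultures, so p-values measure only the spread between these libraries, which may be technical.

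The mitochondrial genome of yeasts is a small circular-mapping DNA that codes for the hydrophobic core of the respiratory chain and of the ATP synthase, while the other subunits are made from nuclear genes and imported. It is transcribed into long precursors, and in fission yeast the excision of tRNAs lying between the genes sets free most of the messenger RNAs. Some genes are interrupted by self-splicing introns, which can hold reading frames of their own for homing endonucleases or for proteins with a reverse transcriptase domain.

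The 11 members fell into 4 kinds by role. The respiratory subunits were 3 core subunits of cytochrome c oxidase (cox1, SPMIT.01; cox2, SPMIT.11; cox3, SPMIT.04) and cytochrome b of the bc1 complex (cob, SPMIT.05). The ATP synthase subunits were atp6 (SPMIT.07), atp8 (SPMIT.09) and atp9 (SPMIT.10), all of its membrane sector. A protein of the small mitochondrial ribosomal subunit was encoded by rps3 (SPMIT.08). Finally, 3 reading frames lay inside introns. The frames cox1-I1b (SPMIT.02) and cox1-I2b (SPMIT.03) sat in the introns of cox1 and are annotated as LAGLIDADG endonuclease domain proteins, and cob-I1 (SPMIT.06) sat in the intron of cob and is annotated with a reverse transcriptase domain.

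All members lay on the plus strand of the mitochondrial record (MT). In the coordinates of the count table, which are those of the ASM294v2 build, cox1 ran from 4886 to 8790 in 3 exons summing to 1614 bases. Its intron frames cox1-I1b and cox1-I2b spanned 5291 to 6445 and 6966 to 7718. The cox3 gene followed at 8947 to 9765, 156 bases after cox1 and with no tRNA gene between them. The cob gene had 2 exons between 10173 and 13862 and enclosed cob-I1 at 10857 to 13280. Downstream came atp6 at 14756 to 15529, rps3 at 15954 to 16637, atp8 at 16914 to 17060, atp9 at 17806 to 18030 and cox2 at 18561 to 19307. From cob onward every gene outside the cob intron had a tRNA gene as its upstream neighbour, between 85 and 180 bases away. No exons of the 38 mitochondrial features in the table overlapped.

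The borders between the host exons and the introns that hold reading frames are shown because the comparison of intron frames with exons turns on them. They were read from the RefSeq mitochondrial record of the ASM294v3 build, plus strand, 5′ to 3′, with the exon bases in capitals and the intron bases in lower case.
cox1 intron 1, start (MT:5269-5308): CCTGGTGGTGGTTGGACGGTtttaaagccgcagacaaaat
cox1 intron 1, end (MT:6479-6518): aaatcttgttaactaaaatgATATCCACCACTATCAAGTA
cox1 intron 2, start (MT:6824-6863): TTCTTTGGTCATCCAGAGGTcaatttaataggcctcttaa
cox1 intron 2, end (MT:7905-7944): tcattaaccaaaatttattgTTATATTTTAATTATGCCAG
cob intron, start (MT:10839-10878): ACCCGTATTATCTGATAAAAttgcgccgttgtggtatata
cob intron, end (MT:13365-13404): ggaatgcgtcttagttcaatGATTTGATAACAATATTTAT
The cox1 introns, 1210 and 1081 bases long, are annotated as group I, the class that uses a guanosine to start its own splicing. In each of them the last exon base was T and the last intron base was G. The cob intron, 2526 bases long, is annotated as group II, the class that splices through a lariat.

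The coding sequences of atp9 and atp8 are shown as the members with the highest and the lowest level, with the start and stop codons in capitals, from the same record and strand.
atp9 (MT:17808-18032): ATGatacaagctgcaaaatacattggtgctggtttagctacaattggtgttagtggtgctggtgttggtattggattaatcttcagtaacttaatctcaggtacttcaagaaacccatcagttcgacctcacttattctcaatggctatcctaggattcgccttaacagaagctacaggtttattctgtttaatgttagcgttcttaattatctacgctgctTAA
atp8 (MT:16916-17062): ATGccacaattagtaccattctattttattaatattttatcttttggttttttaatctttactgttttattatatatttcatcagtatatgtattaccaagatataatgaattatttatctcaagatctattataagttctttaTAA
The atp9 frame of 225 bases encodes 74 residues and has a GC content of 38.2%. The atp8 frame of 147 bases encodes 48 residues and has a GC content of 19.0%.

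Libraries held 435405178 and 495098038 counts in delta4dus and 289767027 and 264948323 in wild-type, of which ribosomal RNA genes took 86.4 and 90.7% in delta4dus and 84.7 and 84.8% in wild-type. The members received 1172969 and 718905 counts in delta4dus and 841460 and 678799 in wild-type. Of the genes labelled as deleted, dus1 had 177 and 167 counts in delta4dus and 2192 and 1940 in wild-type, and dus4 had 410 and 140 in delta4dus and 528 and 467 in wild-type. The genes dus1, dus2 and dus3 passed the edgeR quasi-likelihood test (log2 fold changes of −3.86, −2.95 and −1.56), and dus4 did not (−1.23, adjusted p = 0.626). Without the second wild-type library the adjusted p of dus1 was 0.0528, and with library totals alone that of dus3 was 0.0925. The scaled levels left at dus3 and dus4 in delta4dus were 33.9% and 42.2% of those in wild-type, so RNA counted at these genes remained in the libraries labelled delta4dus, and the labels do not give the deleted part of each gene.

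Levels are given in CPM per kb, the usual measure of read counts relative to library size (CPM, after scaling of the libraries) divided by gene length. Several members were among the genes with the highest levels per kb in these libraries. Only 4 of 5059 nuclear coding genes lay above atp9, the ring subunit of the ATP synthase that carries protons, and 48 lay above cox1 and above cox2. Cytochrome b lay below 124 nuclear coding genes, atp6 below 189 and rps3 below 266. The smallest member, atp8, lay below 1196 of them, with a mean of 6.96 CPM per kb against a median of 3.08 over the nuclear coding genes. The mean levels of the members spanned 137-fold. The atp9 and atp8 genes at its ends are only 225 and 147 bases long. The lengths of 8 members equal those of their coding sequences. Many nuclear coding genes have lengths in the count table that are no whole number of codons, so these hold more than coding sequence. The effect of short or unlike lengths on levels per kb was not tested.

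The order of the mean levels over the 4 libraries was atp9, cox2, cox1, cox3, cob-I1, cob, atp6, cox1-I1b, cox1-I2b, rps3 and atp8, at 951, 321.7, 321.6, 301, 282, 192, 85.2, 56.7, 46.8, 45.5 and 6.96 CPM per kb. The range of atp9 over the libraries lay above that of every other member and the range of atp8 below. From cox2 through cox1 and cox3 to cob-I1, the ranges of neighbours in the order overlapped, so that neighbours were not separated beyond the spread between libraries, while the range of cox2 lay above that of cob-I1. The range of cob lay below these 4 and above that of atp6. The range of atp6 overlapped those of cox1-I1b, cox1-I2b and rps3.

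**Figure D1:**
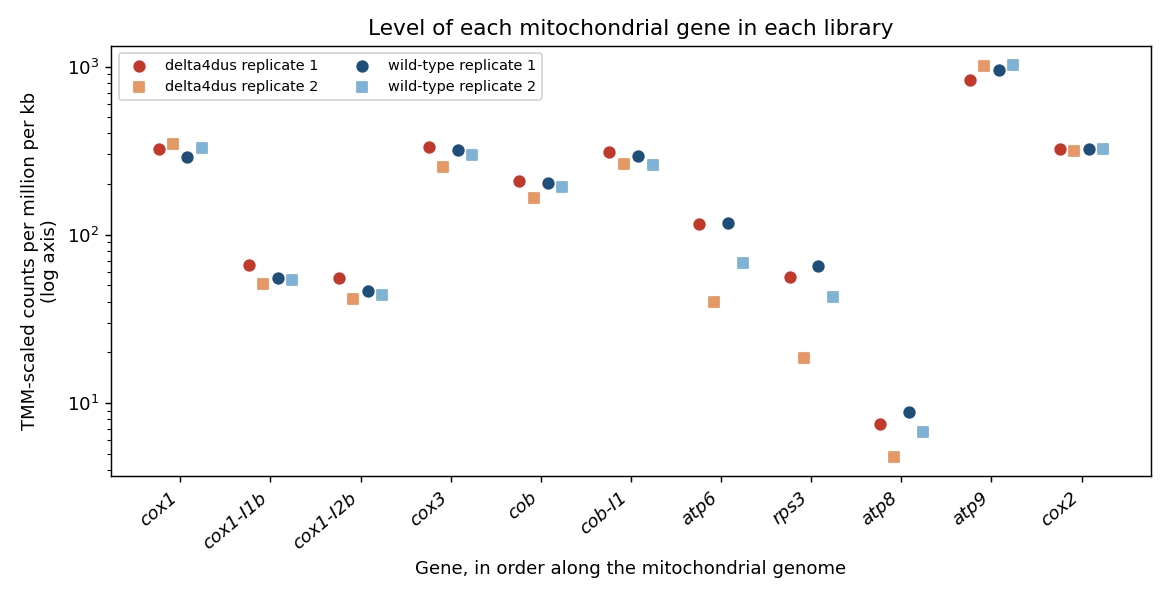
Level of each of the 11 members in each library, in CPM per kb on a log axis, with delta4dus libraries left of wild-type libraries and 1 point per library. The level of atp9 lies between 826 and 1014 in all libraries and that of atp8 below 10, and the points of atp6 and rps3 spread most within a genotype.

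None of the 11 members passed the test between delta4dus and wild-type. The edgeR quasi-likelihood test called 0 of them at an adjusted p under 0.05, against 0.0734% of all 6813 genes tested (5 genes). At an unadjusted p under 0.05 it called 0 members, against 7.57% of all genes, and DESeq2 also called 0. The log2 fold change of delta4dus over wild-type was above 0 in 4 members and below 0 in 7, where 50% of all genes lay above 0 and 50% below. Scaled by library totals alone, which moved the median of all genes to −0.42, those 4 also lay below 0. The members' median was −0.08, beside a median of 0 over all genes. Only cox2 had delta4dus and wild-type libraries that did not overlap, 1 of 11, where 38.7% of all genes had such libraries. In the authors' deposited table the members' log2 fold changes were the same to 2 decimals, with p between 0.26 and 0.754 and adjusted p of 0.999 for all members.

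Summed over all members, the level was 2463 and 2194 CPM in the delta4dus libraries, against 2366 and 2277 CPM in the wild-type libraries. The means were 2328 ± 190 CPM in delta4dus and 2322 ± 62.8 CPM in wild-type (SD, n = 2 libraries each), a log2 difference of 0.00 (exact permutation test, two-sided, p = 1). The smallest p that 2 against 2 libraries allow is 0.333. In RNA from whole cultures, the number of mitochondrial genomes per cell and the amount of RNA per genome cannot be told apart.

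**Figure D2:**
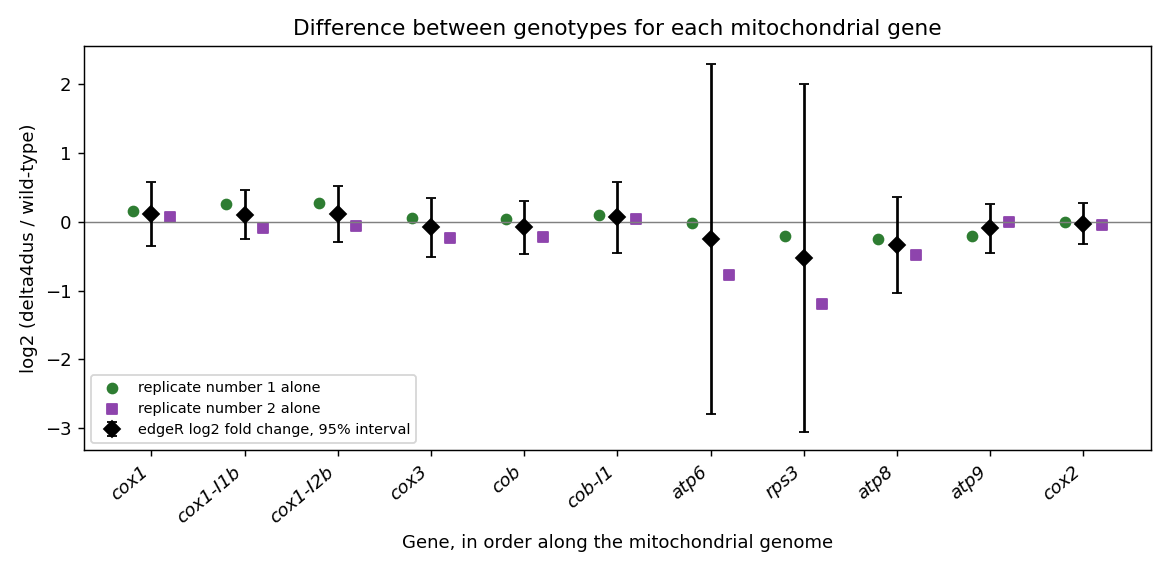
Log2 fold change of delta4dus over wild-type for each member, with its 95% interval from the edgeR fit (diamonds and bars), and the difference between the libraries of replicate number 1 alone (circles) and number 2 alone (squares). Every interval includes 0, and the intervals of atp6 and rps3 are the widest. In 4 members both circles and squares lie below 0, and in 2 both lie above.

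The core subunits of cytochrome c oxidase differed between genotypes by at most 0.11 on the log2 scale. The cox1 gene, whose product binds the heme and copper centre where oxygen is reduced, had 323 and 345 CPM per kb in delta4dus and 289 and 329 in wild-type (334 ± 15.6 against 309 ± 28.7, SD, n = 2 libraries each). The delta4dus and wild-type values overlapped, and the log2 fold change was 0.11 with a 95% interval of −0.35 to 0.57. The cox2 gene, whose product takes electrons from cytochrome c, had 323 and 314 CPM per kb in delta4dus and 325 and 325 in wild-type. Both delta4dus values of cox2 were the lower ones, by a log2 fold change of −0.03 (95% interval −0.33 to 0.27), which did not pass the edgeR test (adjusted p = 0.972). The spread between libraries of a genotype was smallest for cox2 among the members, with an SD of 0.0217 on the log2 scale. The cox3 gene, for the third core subunit, had 332 and 254 CPM per kb in delta4dus and 320 and 299 in wild-type. Its delta4dus values lay on either side of the wild-type ones (log2 fold change −0.08, 95% interval −0.51 to 0.34).

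The cob gene encodes cytochrome b, a heme-bearing membrane subunit of the bc1 complex. It had 207 and 165 CPM per kb in delta4dus and 202 and 192 in wild-type, with a log2 fold change of −0.08 (95% interval −0.47 to 0.30). As with cox3, the delta4dus values enclosed the wild-type ones.

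The ATP synthase genes had the highest and the lowest level of the members. The atp9 gene had 826 and 1010.5 CPM per kb in delta4dus and 954 and 1014 in wild-type, with a log2 fold change of −0.10 (95% interval −0.46 to 0.26). Its lowest value was in delta4dus and the groups overlapped. The atp6 gene, for the subunit that forms the proton channel beside the ring, had 116 and 39.9 CPM per kb in delta4dus and 117 and 68.3 in wild-type. The first library of each genotype was high and the second low, so the groups overlapped and the 95% interval of the log2 fold change, −0.25, ran from −2.79 to 2.28. The atp8 gene, for a small membrane subunit next to atp6, had 7.48 and 4.79 CPM per kb in delta4dus and 8.89 and 6.69 in wild-type. These levels rest on 524 and 231 counts in delta4dus and 465 and 293 in wild-type, by far the fewest of any member. The log2 fold change of atp8 was −0.34 (95% interval −1.03 to 0.35), with the smallest p of the members (edgeR, adjusted p = 0.818).

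The ribosomal protein gene rps3 had 56.0 and 18.5 CPM per kb in delta4dus and 64.9 and 42.6 in wild-type. It had the most negative log2 fold change of the members, −0.53, with a 95% interval of −3.05 to 1.99, and the highest delta4dus value lay above the lower wild-type value. The ratio of rps3 to atp6 per kb was 0.485 and 0.463 in delta4dus and 0.555 and 0.624 in wild-type. That ratio did not overlap between the genotypes, being lower in delta4dus by 0.31 on the log2 scale. Its exact permutation p was 0.333, the smallest possible, and 0.889 after adjustment over the 8 ratios compared.

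The frames in the cox1 introns were far below their host exons in every library, and none of the intron frames passed the test between genotypes. The cox1-I1b frame had 66.5 and 50.8 CPM per kb in delta4dus and 55.4 and 54.2 in wild-type. Relative to the cox1 exons per kb, that was 17.7 ± 4.14% in delta4dus and 17.8 ± 1.95% in wild-type (SD, n = 2 libraries each). The cox1-I2b frame, at 55.4 and 41.7 CPM per kb in delta4dus and 46.1 and 43.8 in wild-type, stood at 14.6 ± 3.57% of the cox1 exons in delta4dus and 14.6 ± 1.87% in wild-type. The log2 differences of the ratios between genotypes were −0.03 for cox1-I1b and −0.02 for cox1-I2b (exact permutation p = 1 for each), and the libraries of the genotypes overlapped.

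The frame of the cob intron was above its host exons in every library. The cob-I1 frame had 311 and 264 CPM per kb in delta4dus and 293 and 259 in wild-type. It took 30.6 and 29.2% of the members' counts in delta4dus and 30 and 27.5% in wild-type, the largest share of any member. Its ratio to the cob exons was 1.5 and 1.6 in delta4dus and 1.45 and 1.35 in wild-type. The ratio did not overlap between genotypes and was higher in delta4dus by 0.15 on the log2 scale, by 0.05 between the first libraries and by 0.25 between the second. The exact permutation p was 0.333, the smallest possible, and 0.889 after adjustment over the 8 ratios. A read counted at an intron frame can come from unspliced precursor, from free intron or from an RNA of the frame itself, and these cannot be told apart here. The GC content was 32.2% for cob-I1 and 29.5% for the cob exons. It was 25.8% for cox1-I1b and 24.9% for cox1-I2b, against 33% for the cox1 exons. In each pair the sequence with more GC had the higher level. The part of base composition in these ratios was not tested. Elsewhere in the table, overlapping features held nearly the same reads at both, so a read that crosses a border between an exon and a frame may be counted at both.

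**Figure D3:**
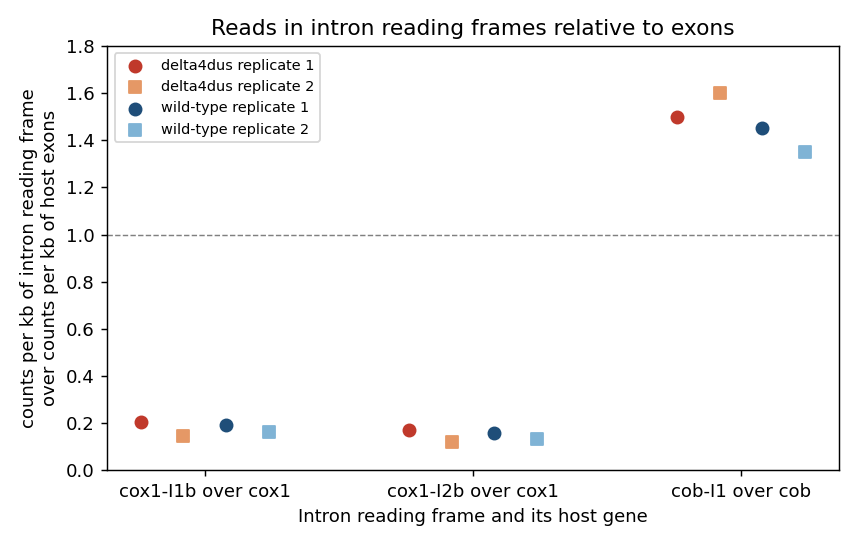
Level per kb of each intron reading frame divided by the level per kb of its host exons, in each library, with delta4dus left of wild-type and 1 point per library. The cox1-I1b and cox1-I2b frames lie well below 1 and cob-I1 above 1 in all 4 libraries.

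For atp6 and rps3 the libraries of a genotype differed more than the genotypes did. For atp6 the first library exceeded the second by 2.89-fold in delta4dus and by 1.71-fold in wild-type, and for rps3 by 3.03-fold in delta4dus and by 1.52-fold in wild-type. For atp8 the ratio was 1.56-fold in delta4dus and 1.33-fold in wild-type. The within-genotype SD of log2 level was 0.859 for atp6 and 0.855 for rps3, larger than that of 98.6% of the 6023 genes with a mean count of at least 100, whose median was 0.0778. The other members stayed within 0.41 on the log2 scale between the libraries of a genotype.

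The atp6, rps3 and atp8 genes are neighbours, and tRNA genes lie between them. Those between atp6 and rps3 are 3, for histidine, proline and glutamine. Their log2 ratio of the second library to the first ran from −0.10 to 0.37 in delta4dus and from −0.06 to 0.39 in wild-type, where atp6 had −1.53 in delta4dus and −0.78 in wild-type. These tRNA genes lay near 0 or above, where the genes on either side were far below. The isoleucine tRNA gene between rps3 and atp8 had −0.09 in delta4dus and −0.34 in wild-type, and the cysteine tRNA gene after atp8 had −0.51 in delta4dus and 0.09 in wild-type. The atp9 gene, the next protein gene after atp8, had 0.29 in delta4dus and 0.09 in wild-type.

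Base composition moved with both the level and the library difference. The 3 members with the widest difference had GC contents of 26.5% (atp6), 22.5% (rps3) and 19.0% (atp8), but cox1-I1b and cox1-I2b, at 25.8% and 24.9%, differed by at most 0.41 on the log2 scale. Over the 11 members, Spearman's rho of GC content was 0.95 with the mean level per kb, 0.88 with the library difference in delta4dus and 0.62 with that in wild-type. It was 0.39 with the log2 fold change of delta4dus over wild-type. These are descriptions of 11 genes that share their libraries. Over the 5059 nuclear coding genes the same rho was 0.41 with the level, 0.20 with the library difference in delta4dus and 0.00 with that in wild-type. Of the nuclear genes, whose median GC content was 39.6%, 38 had a GC content under 33%, and the median of their library difference was −0.13 in delta4dus and −0.06 in wild-type. The part of base composition in the spread of atp6 and rps3 was not tested.

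**Figure D4:**
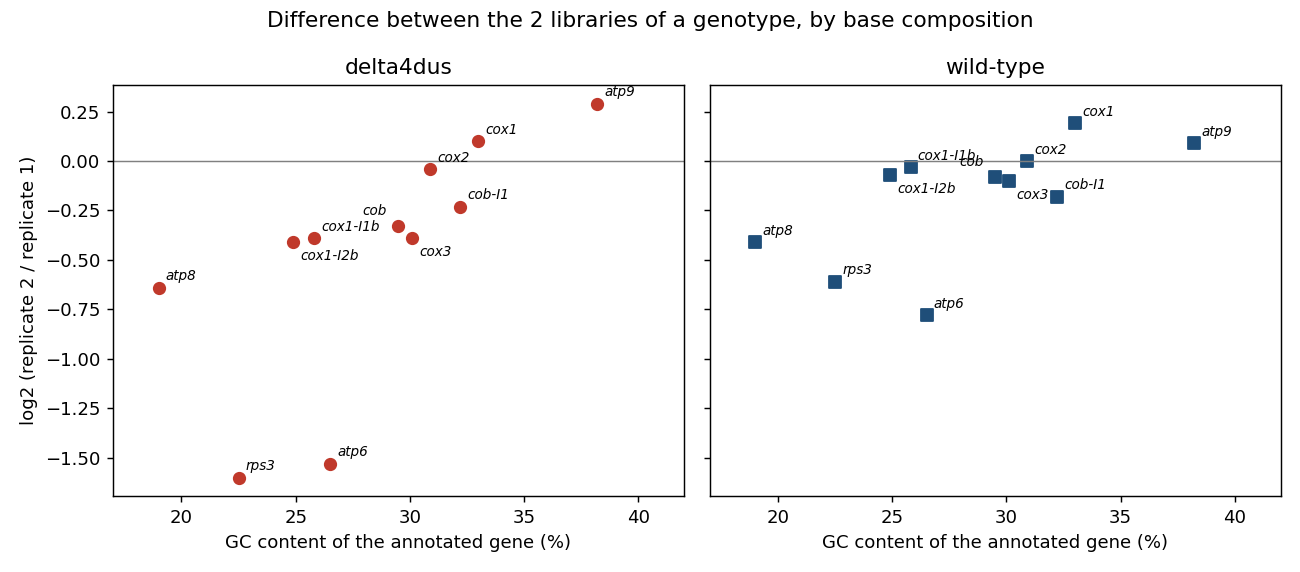
Log2 ratio of the second library to the first, in delta4dus (left) and in wild-type (right), against the GC content of each member in percent. The points of atp6 and rps3 lie lowest in both genotypes, at −1.53 and −1.60 in delta4dus and −0.78 and −0.61 in wild-type.

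The nuclear genes that work with the members were read from the same fit. Of 106 such genes in 7 lists, edgeR called 0 at an adjusted p under 0.05 (smallest adjusted p = 0.484), and DESeq2 called 0. At an unadjusted p under 0.05 there were 11, all lower in delta4dus, beside 7.57% of all genes in either direction. The delta4dus and wild-type libraries did not overlap for 47 of the 106, beside 38.7% of all genes. No list had a gene that passed this test of genotype alone, and the values that follow describe differences that did not pass it. With replicate number as a block, 19 of the 106 were called, beside 825 of all 6813 genes. The labels do not say that replicate numbers pair libraries.

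The nuclear subunits of the complexes that hold the members' products had medians slightly below 0. For the ATP synthase, 12 of 13 nuclear genes had a log2 fold change below 0, beside 50% of all genes, with a median of −0.14. In 7 of the 13 both delta4dus libraries were below both wild-type ones, beside 19.7% of all genes. The atp17 gene, for a membrane subunit, had 12.2 and 12.1 CPM per kb in delta4dus and 14.6 and 13.3 in wild-type (log2 fold change −0.20, edgeR adjusted p = 0.626). The atp3 gene, for the gamma subunit of the rotor, had 12.9 and 12.7 CPM per kb in delta4dus and 14.7 and 13.6 in wild-type (−0.15, adjusted p = 0.643). For cytochrome c oxidase the count below 0 was 6 of 8 with a median of −0.07, and for the bc1 complex 7 of 9 with a median of −0.06. Both delta4dus libraries were below both wild-type ones in 3 of the 8 and in 0 of the 9. Among the cytochrome c oxidase genes, cox12 had 15.8 and 13.9 CPM per kb in delta4dus and 17.1 and 16.8 in wild-type (−0.19, adjusted p = 0.645). The other respiratory enzymes had 4 of 6 above 0 and a median of 0.03, and the libraries of the genotypes overlapped in all 6.

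The nuclear genes of mitochondrial gene expression did not pass the test of genotype alone either. Of 39 mitochondrial ribosomal protein genes, 34 were below 0 with a median of −0.11, beside 50% of all genes below 0. In 21 of the 39 both delta4dus libraries were below both wild-type ones, beside 19.7% of all genes, and in 3 they were above, beside 19% of all genes. The mrpl28 gene, for a protein of the large mitochondrial ribosomal subunit, had 4.39 and 4.43 CPM per kb in delta4dus and 5.51 and 5.45 in wild-type. Its delta4dus values were the lower ones, with a log2 fold change of −0.31 ± 0.0606 (SE), the smallest p of all 106 genes (edgeR, adjusted p = 0.484). Of 27 factors for mitochondrial transcription and RNA processing or translation, 18 were below 0 with a median of −0.02. In 6 of the 27 both delta4dus libraries were below both wild-type ones, and in 4 they were above. Among the 27 factors rpo41, the mitochondrial RNA polymerase, had 3.34 and 3.42 CPM per kb in delta4dus and 3.16 and 3.06 in wild-type (0.12, adjusted p = 0.669). The cbp6 gene, for a factor of cytochrome b synthesis in budding yeast, had 4.77 and 3.84 CPM per kb in delta4dus and 5.23 and 5.18 in wild-type (−0.27, adjusted p = 0.667). Of 7 listed genes of mitochondrial DNA maintenance, 4 were matched by name, and these had a median of −0.10 and a range of −0.16 to 0.00. In 3 of the 4 both delta4dus libraries were below both wild-type ones, beside 19.7% of all genes. The gene whose libraries overlapped was pog1, the mitochondrial DNA polymerase. It had 2.90 and 3.11 CPM per kb in delta4dus and 2.82 and 3.20 in wild-type (0.00).

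**Figure D5:**
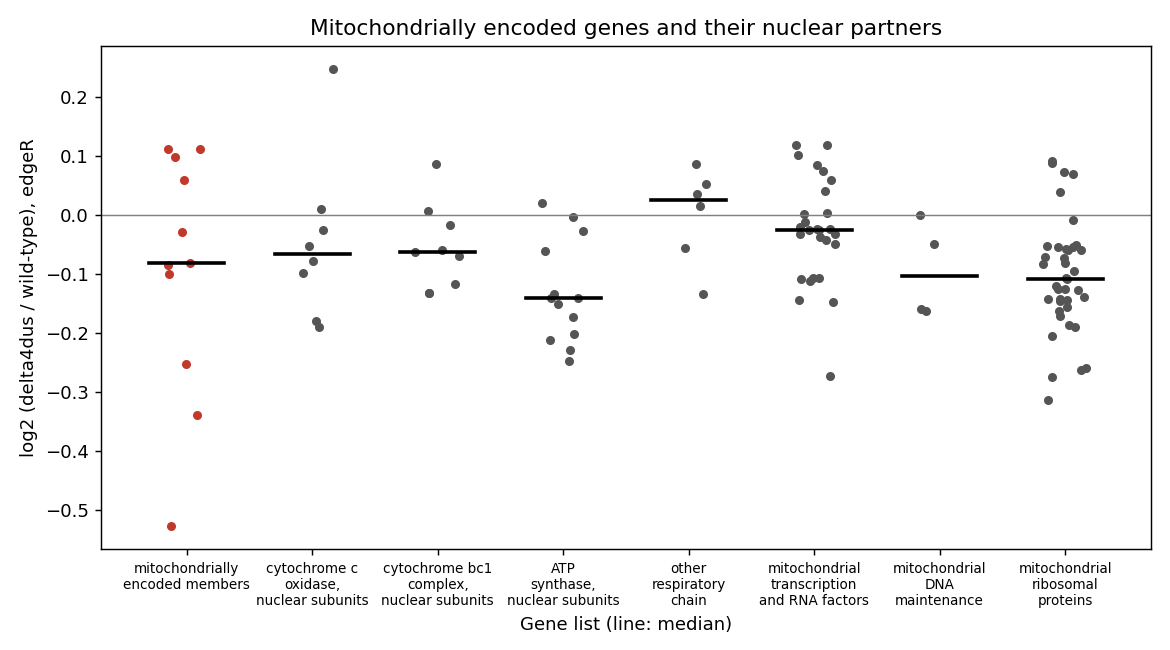
Log2 fold change of delta4dus over wild-type for the genes of each of the 7 nuclear lists (1 point per gene), with the list's median, beside the mitochondrial members. The medians lie between −0.14 and 0.03, and the lowest member, rps3, lies at −0.53.

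Levels per kb of the mitochondrially encoded subunits lay above those of all nuclear subunits of the same complex on the lists for cytochrome c oxidase and the bc1 complex, but not for the ATP synthase. The nuclear subunits of cytochrome c oxidase had a median of 14.3 CPM per kb, from 3.59 for cox8 to 25.3 for cox13, where cox1, cox2 and cox3 averaged 321.6, 321.7 and 301. Those of the bc1 complex had a median of 14.3 and reached 33 for qcr8, where cob averaged 192. The nuclear subunits of the ATP synthase ran from 5.12 for inh1, an inhibitor protein, to 81.5 for atp2, the catalytic beta subunit. Thus atp2 lay above atp8 and within the range of atp6 over the libraries. The part of the unlike lengths of mitochondrial and nuclear genes in these differences was not tested.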

How the data were processed

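The submitters' processing notes name Trimmomatic 0.36, TopHat2, featureCounts and the build ASM294v2, and their options are not given in the sources used. The authors deposited raw counts per gene and a table of their own comparison, for which the notes name DESeq2. Per the file headers, the authors' deposited table holds p-values, log2 fold changes and their errors, the mean normalised signal and a score, which is the fold change divided by its error.

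From the counts, edgeR 4.0.16 in R 4.3.3 was run with TMM scaling, filterByExpr (minimum count 10, minimum total 15, leaving 6813 genes), a robust quasi-likelihood fit of genotype with 2 residual degrees of freedom, and Benjamini-Hochberg adjustment over all genes tested, with calls under 0.05. TMM factors were 1.094 and 0.662 in delta4dus and 1.227 and 1.125 in wild-type. CPM per kb used these scaled library sizes, ribosomal RNA included, and the table's gene lengths. Reads carry no molecular identifiers, so depth alone does not set the error. Sums and ratios were compared by exact permutation over libraries. DESeq2 1.42.0, other scalings, no filter, a replicate block and leaving out each library were the alternatives.

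The table gives identifiers only. Names came from RefSeq ASM294v3, by identifier for 6844 of 7049 genes. Of the members, 8 matched by equal exon lengths at positions within 2 bases and 3 by an overlap of at least 90% of the shorter feature. Among these 3, cox1-I2b had 753 bases in the count table and 972 in RefSeq. Its GC content is that of the RefSeq frame. Sequences and GC content came from the same RefSeq build. Named genes were all members, the deleted genes and the 4 of each nuclear list with the smallest p, of which the text prints some, with the highest and lowest genes of a list chosen after their levels were seen. The members and lists were chosen with earlier results of these data known, and mip1 was taken out of the DNA maintenance list after the files were read because RefSeq describes another protein under that name. Of the nuclear genes listed, sdh4, nde2, ppr9, abf2, pif1 and twm1 had no match by name and were left out. The 2 ribosomal RNA genes of the mitochondrial genome are not members by identifier.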

Additional observations from a re-analysis of the deposited data

How the results depend on the processing

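No member was called under any of the 11 alternatives. The replicate numbers are not said to pair libraries, but deviations of same-numbered libraries correlated at 0.647 over 6813 genes. With replicate number as a block, the smallest adjusted p of a member was 0.0521 (atp8, log2 fold change −0.35), the difference in summed level stayed at 0.00, and 19 of the 106 nuclear partner genes were called, against 0 without the block. Of the nuclear genes whose values are given above, the block called mrpl28 (adjusted p = 0.000204), atp17 (0.00157), cbp6 (0.00418), cox12 (0.00834) and atp3 (0.0164), and not rpo41 or pog1. The block also raised the calls over the whole table to 825 of 6813 genes (432 higher and 393 lower), against 5, and DESeq2 made 52. Scaling by library totals alone moved the median of all genes to −0.42, and with it these values turned negative: summed level −0.46, cox1 −0.32, cox1-I1b −0.28, cox1-I2b −0.26, cob-I1 −0.34, cox8 −0.24, sdh1 −0.33, cyc1 −0.39, rpo41 −0.31 and mef2 −0.31. Leaving out single libraries gave −0.08 to 0.09 for the summed level, −0.27 to 0.21 for the ratio of cox1-I1b to its exons, −0.27 to 0.23 for cox1-I2b and 0.10 to 0.20 for cob-I1. The lone library of a genotype is then assumed to vary like the other genotype. The log2 fold changes ran from −1.54 to 0.06 for rps3, −1.22 to 0.32 for atp6, −0.25 to 0.04 for atp9, −0.26 to 0.07 for cob, −0.06 to 0.17 for cob-I1, −0.11 to 0.28 for cox1-I1b, −0.11 to 0.30 for cox1-I2b and −0.29 to 0.10 for cox3, and, with the sign kept, 0.02 to 0.21 for cox1, −0.05 to −0.01 for cox2 and −0.70 to −0.06 for atp8. Among nuclear genes they ran from −0.03 to 0.48 for cox8, −0.17 to 0.04 for qcr6, −0.09 to 0.28 for sdh1, −0.37 to 0.15 for sdh3, −0.17 to 0.07 for nde1, −0.05 to 0.17 for cyc1 and −0.09 to 0.09 for pog1, and with the sign kept from −0.44 to −0.13 for cbp6, −0.29 to −0.10 for cox12, −0.27 to −0.13 for atp17 and −0.20 to −0.10 for atp3. The causes were not tested, apart from the shift by library totals, which moved all genes. With 2 libraries per genotype, changes of atp6 or rps3 within their intervals were not detectable.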

Other observations

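The other RNAs of the mitochondrial genome were outside the members. The 25 mitochondrial tRNA genes summed to 170.8 and 247 CPM in delta4dus and 137.4 and 178.9 CPM in wild-type, a log2 difference of 0.39 (exact permutation test, two-sided, p = 0.667). All 25 had a log2 fold change above 0, beside 50% of all genes, from 0.003 to 1.27 with a median of 0.33. The edgeR test called 0 of them, beside 0.0734% of all genes, and the summed levels of the genotypes overlapped. The large mitochondrial ribosomal RNA, SPRRNA.01, had 4591 and 4083 CPM in delta4dus and 5104 and 4494 CPM in wild-type, and the small one, SPRRNA.02, had 1957 and 2263 CPM in delta4dus and 2068 and 2084 CPM in wild-type. These ribosomal values were taken after depletion of ribosomal RNA, so they are not levels in the cell.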
